A study of Schizosaccharomyces pombe with 12 samples.

Results

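The effect of deleting set2 in Schizosaccharomyces pombe (fission yeast) was measured by comparing 3 set2Δ libraries with 3 wild-type (WT) libraries, out of 12 libraries in the series. The members were all 7013 gene rows of the count files, of which 6602 had enough counts to be tested and 411 did not. The set2Δ cells were labelled as a Set2D mutant with wild-type histone H3, read here as a deletion of set2, and the WT cells were labelled with wild-type H3 and no deletion. The remaining libraries came from cells whose H3 had glycine replaced by arginine (G34R) or by valine (G34V), with 3 libraries each. They are used below only for direct tests against set2Δ and for values beside it. All cultures grew overnight in rich YES medium at 25 °C, and 2 µg of DNase-treated total RNA per library went through depletion of ribosomal RNA and a kit that keeps the strand. The labels name neither the mating type, nor the marker used for the deletion, nor whether replicate libraries stem from separate cultures. The p-values therefore reflect only the spread among replicate libraries, which may be technical. The marker gene ura4 was near the floor in both groups, at 0.199, 0.146 and 0.105 CPM in set2Δ and 0.198, 0.251 and 0.245 CPM in WT. CPM are read counts scaled to a common library size.

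Set2 is the methyltransferase that marks lysine 36 of histone H3 (H3K36). It travels with elongating RNA polymerase II and places the mark over the bodies of transcribed genes. The mark is read by chromodomain and PWWP proteins, among them Alp13 of the histone deacetylase complex Clr6 complex II and Pdp3 of the acetyltransferase complex Mst2. Loss of Set2 is known in yeasts for transcription that starts inside genes or runs antisense to them, and in fission yeast also for weaker silencing near chromosome ends.

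Depth was 81980085, 92608470 and 190041712 counts in genes in set2Δ and 160193734, 159950870 and 228726069 in WT, so that 3 counts correspond to at most 0.0352 CPM in set2Δ and 0.0192 CPM in WT. Libraries of a group correlated at r = 0.999 to 0.9997 across genes on the log scale, and set2Δ libraries correlated with WT libraries at r = 0.9829 to 0.9834. The first principal component held 73.4% of the variance and separated set2Δ from the other groups. Every value of set2Δ replicate 3 was an even number, against 48.4 to 50.5% of nonzero values in the other libraries. If each read pair was counted 2 times in that file, its depth would be 95020856 counts, which was not tested. The leading counts are therefore also given without that library. The counts of calls in the lists of Tf2 elements, amino acid synthesis and chaperones, given below, were the same without it.

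The deleted gene was examined first. The transcript of set2 had 4.38, 3.70 and 3.69 CPM in set2Δ, against 133, 129 and 122 CPM in WT. All set2Δ libraries lay far below all WT libraries, at 3.07% of the WT mean (log2 fold change −5.04, SE 0.052, adjusted p = 2.2e-18, quasi-likelihood test of edgeR, Benjamini-Hochberg adjusted). The counts are given per gene, so it was not examined which part of the locus the remaining reads came from. The direct tests gave log2 differences of −4.83 against G34R and −5.07 against G34V. Genes beside set2, chosen for their position after the values were seen, changed unequally. The noncoding RNA SPNCRNA.268 was higher at 7.04 ± 0.372 CPM in set2Δ and 1.29 ± 0.115 CPM in WT (SD, n = 3 each; log2 fold change 2.43), while spd1, an inhibitor of ribonucleotide reductase, changed by 0.22 and the chromatin remodeller gene ino80 by 0.08 on the log2 scale.

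**Figure D1:**
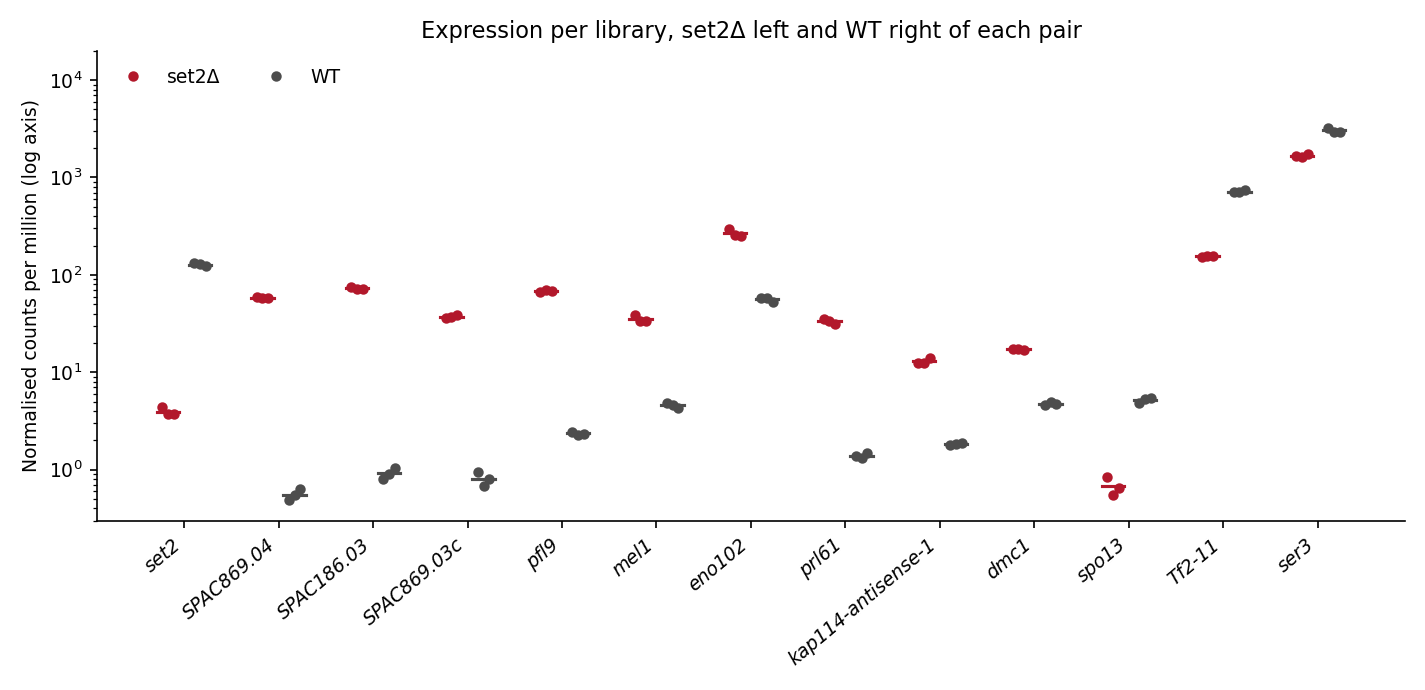
Expression of 13 genes in each library, with normalised counts (CPM) on a log axis. Points are libraries, set2Δ to the left and WT to the right of each pair, and bars are group means; in each of these genes the 3 set2Δ values lie wholly above or wholly below the 3 WT values.

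Deletion of set2 was accompanied by small differences in most genes and large ones in few. Of the 6602 genes tested, 4627 were called (70.1%), of which 2276 were higher (34.5%) and 2351 lower (35.6%) in set2Δ, at an adjusted p under 0.05. Without set2Δ replicate 3 the counts were 2239 higher and 2265 lower. The split of these small changes depended on the scaling: with library size only, 2794 genes were higher and 1621 lower. The median size of a called difference was 0.242 on the log2 scale, and 62.3% of called genes differed by less than 1.25-fold. Changes of at least 2-fold were mostly upward, with 366 genes higher (5.54%) and 86 lower (1.3%), together 6.85% of tested genes. Among the 366, 129 were protein-coding genes, 11 pseudogenes, 132 antisense RNAs named after a sense gene and 83 other noncoding RNAs of the SPNCRNA series. Among the 86 were 25 protein-coding genes, 38 SPNCRNA RNAs, all 12 tested Tf2 retrotransposons and 4 antisense RNAs. The values of single libraries did not overlap between set2Δ and WT in 4749 genes (71.9%). A culture measured in bulk cannot tell apart a change in the share of cells that express a gene and a change in RNA per cell.

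**Figure D2:**
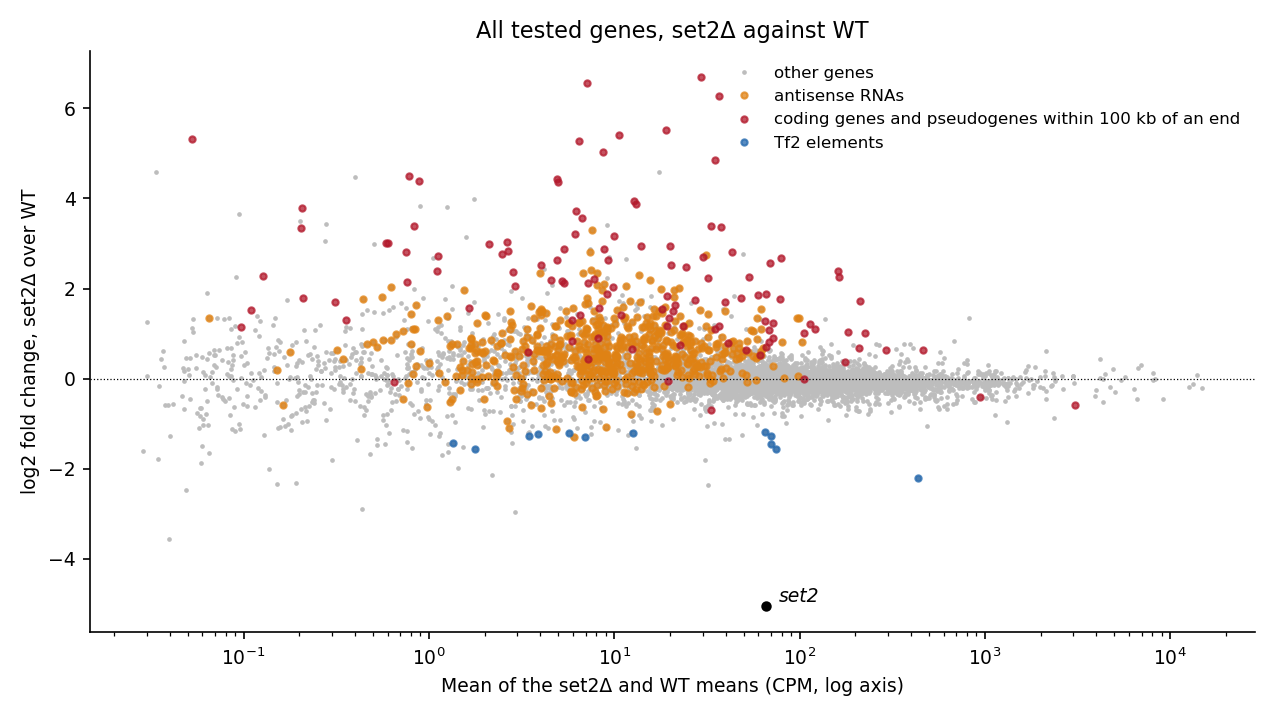
log2 fold change of set2Δ over WT for each tested gene against the mean of both group means in CPM on a log axis. Coding genes and pseudogenes within 100 kb of an end of chromosome I or II (red) and antisense RNAs (orange) lie mostly above 0, and the 12 Tf2 elements (blue) lie below it, as does set2.

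Genes near the ends of chromosomes I and II were strongly raised in set2Δ. The 15 coding genes with the largest increases, at a mean of at least 5 CPM in set2Δ, are described below, and all 15 lie within 100 kb of an end. SPAC869.04, annotated as a formamidase-like protein, had 59.6, 57.4 and 58.2 CPM in set2Δ, against 0.486, 0.553 and 0.629 CPM in WT. It was under 1 CPM in every WT library and rose 103-fold (log2 fold change 6.69, SE 0.065, adjusted p = 5.7e-19, edgeR). The genes with the next largest increases act in nitrogen use, and in none of them did the groups overlap. SPAC186.03, an L-asparaginase gene, had 74.7, 71.7 and 72.4 CPM in set2Δ, against 0.812, 0.904 and 1.05 CPM in WT (log2 fold change 6.28). SPAC869.03c, a urea transporter gene, had 35.9, 37.2 and 38.6 CPM in set2Δ, against 0.940, 0.678 and 0.803 CPM in WT (5.53). SPAC869.01, an amidase gene, averaged 20.7 ± 0.648 CPM in set2Δ and 0.488 ± 0.0180 CPM in WT (SD, n = 3 each; 5.40). SPAC186.03, pfl9, SPAC869.01, SPAC869.03c and SPAC869.04 lie within a short stretch of the right arm of chromosome I.

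The cell surface glycoprotein gene pfl9, of the flocculin-like DIPSY family, had 66.1, 69.3 and 68.5 CPM in set2Δ, against 2.45, 2.29 and 2.34 CPM in WT (log2 fold change 4.85, SE 0.050). SPBC1348.06c, SPAC977.05c and SPBPB2B2.15 share an annotated Vel1p domain and lie near 3 different ends, and rose by 5.28, 5.04 and 4.37 on the log2 scale. Each of these also has a stretch of at least 100 bases at 90% identity elsewhere in the genome, as do SPAC186.03 and SPBC1348.07. Some reads of these genes may therefore have been left out as multiply aligned. A second urea transporter gene, SPBPB8B6.02c, rose by 3.87 on the log2 scale. The enzymes SPAC186.08c, an L-lactate dehydrogenase, and SPAC186.02c, a hydroxyacid dehydrogenase, rose by 3.73 and 3.57, and the transcription factor gene SPBC1348.12 by 3.37. SPAPJ695.01c, SPAPJ695.02 and SPBC1348.07, of unknown function, completed the 15 with log2 fold changes of 4.43, 3.40 and 3.21. Values of all of these did not overlap between the groups.

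Over the whole region, 136 coding genes and pseudogenes lie within 100 kb of an end. Of these, 117 were tested and the other 19 had too few counts. The count filter could keep a gene through its set2Δ counts alone, so the shares of tested genes that rose are partly set by it. Of the 117, 110 rose (94.0%, against 34.5% of all tested genes), 95 of them by at least 2-fold, and 3 fell. Their median log2 fold change was 2.06, against −0.01 over all tested genes, and 95 of the 140 coding genes and pseudogenes raised at least 2-fold (67.9%) lie there. Without set2Δ replicate 3, 109 rose and 3 fell. Their summed level was 9850, 9540 and 9710 CPM in the set2Δ libraries, against 7550, 7370 and 7340 CPM in the WT libraries. Among the pseudogenes, SPBC1348.11, chosen after its value was seen, had 14.1 ± 0.293 CPM in set2Δ and 0.142 ± 0.0638 CPM in WT (SD, n = 3 each; log2 fold change 6.55). Noncoding RNAs of the same regions moved likewise, 27 of 28 tested being higher (median 2.69).

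The size of the change fell off with distance from the end. The median log2 fold change was 2.18 in the first 20 kb, 2.79 between 20 and 40 kb, 1.72 between 40 and 60 kb, 1.87 between 60 and 80 kb and 0.90 between 80 and 100 kb. Beyond that it was 0.34 up to 120 kb, 0.10 up to 150 kb, 0.04 up to 200 kb and −0.05 between 200 and 300 kb. All 21 tested genes of the first 20 kb and all 26 of the following 20 kb rose by at least 2-fold. Some, such as SPAC212.02 (means of 0.371 CPM in set2Δ and 0.0357 CPM in WT), may have passed the count filter only through set2Δ. These full shares are therefore partly set by the filter. Levels in WT also change along this axis, with a median of 0.356 CPM in the first 20 kb, 19.9 CPM between 80 and 100 kb and 83.2 CPM beyond 300 kb. The part of the WT level in the pattern was not tested.

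**Figure D3:**
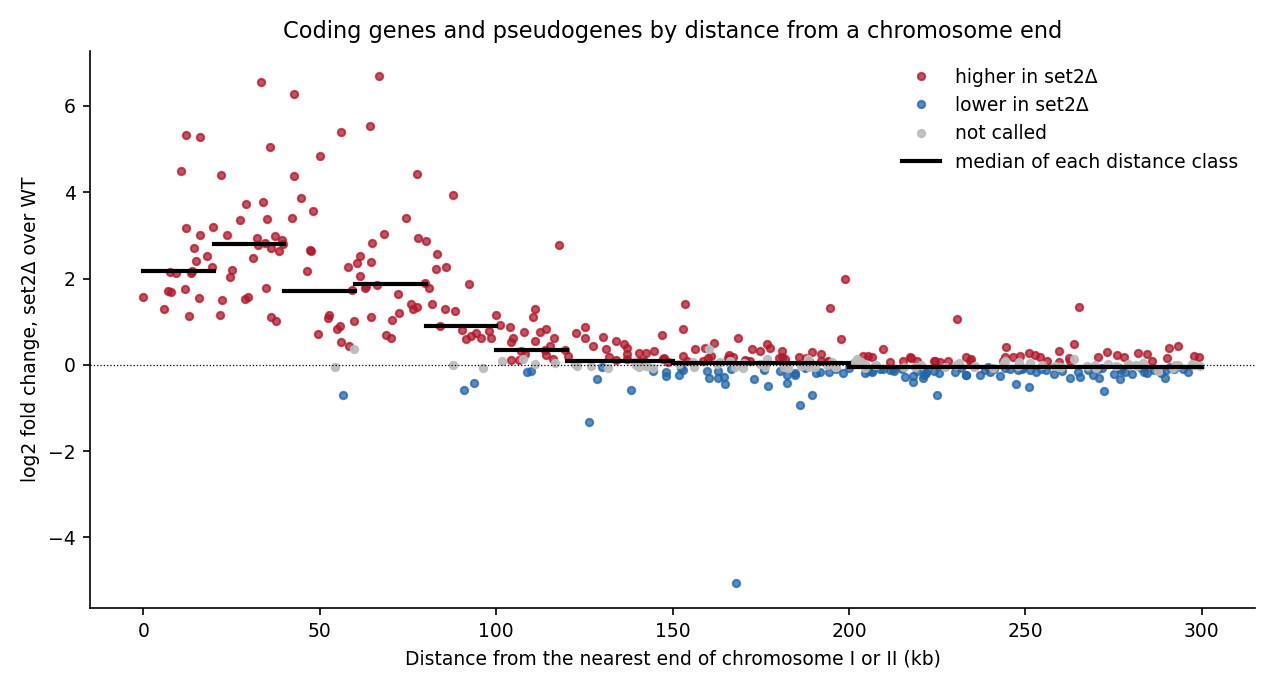
log2 fold change of set2Δ over WT for coding genes and pseudogenes against distance from the nearest end of chromosome I or II in kb, up to 300 kb, with set2 as the lowest point. Points are genes coloured by call and black lines are medians of distance classes, which fall to 0.34 by 100 to 120 kb and to 0.04 by 150 to 200 kb.

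All of the 4 arms showed it. Of the tested genes within 100 kb, 32 of 34 rose on the left arm of chromosome I, 28 of 30 on its right arm, 27 of 28 on the left arm of chromosome II and 23 of 25 on its right arm. Counted inwards from the end, the unbroken run of raised genes held 20 genes on the left arm of chromosome I and stopped at SPAC977.12, which fell. It held 24 on the right arm of chromosome I, up to the proline permease gene put4, and stopped at cat1, an amino acid permease gene that was not called (log2 fold change −0.01, adjusted p = 0.77, edgeR). On chromosome II it held 13 on the left arm, where SPBPB8B6.05c was not called, and 22 on the right arm, up to fub2. The next gene on that arm was pho1, the secreted acid phosphatase, which had 2406, 2424 and 2522 CPM in set2Δ, against 3685, 3630 and 3751 CPM in WT. The 3 genes that fell, with no overlap of single libraries, were SPAC977.12 (−0.70), pho1 (−0.59) and the phosphate transporter gene pho84 (−0.41). The telomere-linked helicase genes, chosen after their values were seen, both rose, tlh1 by 1.57 and tlh2 by 1.7 on the log2 scale.

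Many genes at chromosome ends are members of repeated families, and multiply aligned reads were not counted. Of the 117 genes, 49 have a similar stretch elsewhere in the genome (at least 100 bases at 90% identity), and 46 of these rose, with a median of 2.27. Of the 68 without one, 64 rose and 2 fell, with a median of 1.81. In G34R and G34V, compared with the same WT libraries, the 117 genes had medians of −0.21 and 0.28. Of the 117, 16 were higher and 53 lower in G34R, and 59 were higher and 16 lower in G34V. Over all 6602 tested genes 1771 were higher and 1753 lower in G34R, and 1657 and 1649 in G34V. The medians of the first 20 kb were −0.04 in G34R and 0.72 in G34V. In the direct tests 110 of the 117 were higher and 4 lower in set2Δ than in G34R, where 69.4% of all tested genes were called, 35.4% higher and 34% lower. Against G34V 105 were higher and 7 lower, where 62.5% of all tested genes were called, 32.8% higher and 29.6% lower.

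The sugar, iron and cell surface lists were divided by distance from an end after the values were seen. Of 15 tested genes of hexose transport and galactose use, 8 rose and 6 fell, against 34.5% higher and 35.6% lower among all tested genes. The 6 within 100 kb of an end all rose, and of the 9 elsewhere 2 rose and 6 fell, with medians of 1.66 and −0.39. The alpha-galactosidase gene mel1 had 39.0, 33.3 and 33.9 CPM in set2Δ, against 4.87, 4.62 and 4.35 CPM in WT (log2 fold change 2.94, SE 0.073, adjusted p = 4.0e-14, edgeR). The transporter genes ght7 and ght3 rose by 2.64 and 2.23, while their relative ght6, away from the ends, fell by 0.95. The enolase gene eno102 had 299, 255 and 253 CPM in set2Δ, against 58.0, 58.1 and 52.2 CPM in WT (2.26), and it was the one subtelomeric member of the glycolysis list, where 3 of 15 rose and 5 fell (7 and 5 with library size only). Of 13 iron uptake genes 5 rose (38.5%, near the share of all tested genes) and 1 fell. Of the 11 away from the ends 3 rose (27.3%) and 1 fell, with a median of 0.05. The only members changed at least 2-fold were shu1, for haem uptake (1.29), and the transporter gene str3 (1.24), both near an end. Of 14 surface glycoprotein genes and their regulators 8 rose and 3 fell (9 and 1 with library size only), led by pfl9, pfl6 (3.40) and pfl7 (2.78), of which pfl7 lies beyond 100 kb. Of the 12 away from the ends 6 rose and 3 fell, with a median of 0.08.

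Antisense transcripts mostly rose. The files name 635 RNAs as antisense to a coding gene, of which 617 were tested. In set2Δ 479 were higher (77.6%, against 34.5% of all tested genes) and 54 lower, and 132 rose and 4 fell by at least 2-fold, with a median log2 fold change of 0.54. Without set2Δ replicate 3, 475 were higher and 49 lower. Their summed level was 10400, 10400 and 10500 CPM in set2Δ, against 6840, 6840 and 7000 CPM in WT. Outside the end regions 468 of 606 were higher, with a median of 0.52. Counts used the strand: of 18 noncoding RNAs contained in an oppositely oriented coding gene, 15 had more than 3 counts in every library. Reads outside annotated genes, as a share of all reads, were 3.26% (3.21 to 3.30%) in set2Δ and 2.02% (1.99 to 2.03%) in WT, and their part in the antisense result was not tested.

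Named examples show the range. The antisense RNA of kap114, a nuclear import receptor gene, had 12.5, 12.4 and 13.9 CPM in set2Δ, against 1.78, 1.83 and 1.88 CPM in WT (log2 fold change 2.82, SE 0.081, adjusted p = 8.7e-14, edgeR). Every set2Δ library lay above every WT library, while kap114 itself changed by 0.12. The antisense RNA of grt1, a transcription factor gene, had 56.4, 54.0 and 52.1 CPM in set2Δ, against 8.06, 8.06 and 8.14 CPM in WT (2.74), and the sense transcript rose by 2.67. SPAC869.09-antisense-1 rose by 3.31 beside a sense gene that rose by 1.41, SPAC1039.07c-antisense-1 by 2.42 beside one that rose by 0.44, and SPBP4G3.03-antisense-1 by 2.35. Against the trend, the antisense RNA of kpa1 had 3.57, 3.80 and 3.32 CPM in set2Δ, against 8.49, 8.72 and 8.59 CPM in WT (−1.29), and kpa1 itself was not called (0.04, adjusted p = 0.60, edgeR). Other antisense RNAs that fell were those of SPCC191.10 (−1.11), end4 (−0.78) and cwf20 (−0.71).

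The medians were larger for antisense RNAs of longer genes. Of the 550 whose sense gene was tested and has a known length, split into 4 length classes of near-equal size, the RNAs opposite the shortest genes (330 to 1270 bases) had a median log2 fold change of 0.28, with 59.4% higher. The medians were 0.42, 0.64 and 0.72 in the following classes, with 78.8, 83.9 and 87.0% higher. The trend over classes was not tested. Split instead by the WT level of the sense gene, from low to high, the median log2 fold changes were 0.29, 0.49, 0.69 and 0.68. The median level of the antisense RNAs in WT was 6.08 CPM opposite the shortest genes and 9.59 CPM opposite the longest.

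**Figure D4:**
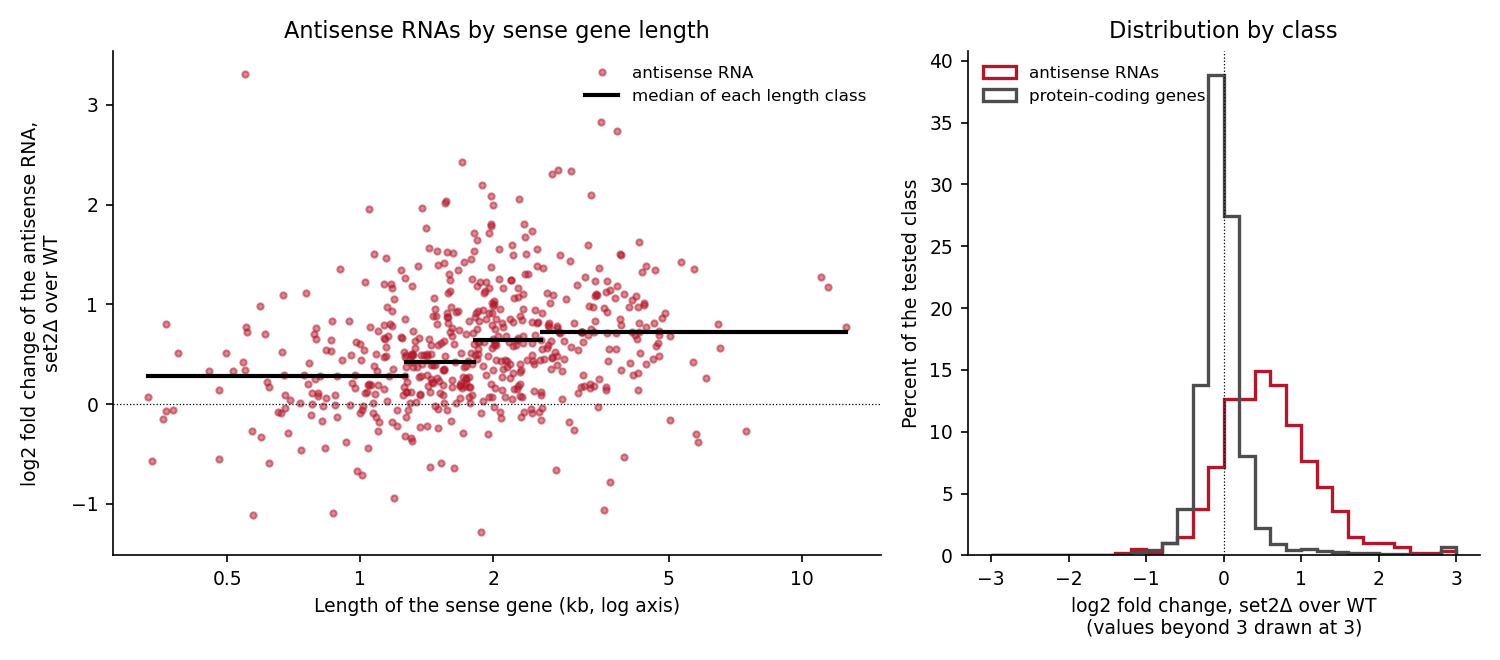
Left, log2 fold change of antisense RNAs, set2Δ over WT, against the length of the sense gene in kb on a log axis, with the median of each length class, 0.28 for the shortest and 0.72 for the longest genes. Right, share of each class by log2 fold change, where antisense RNAs (median 0.54) lie to the right of protein-coding genes (median −0.04).

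Antisense RNAs rose beside sense transcripts of every kind. Among the 550 pairs the antisense RNA rose with a higher sense transcript in 154, with a lower one in 163 and with one that was not called in 108. Across pairs the rank correlation of both log2 fold changes was 0.047, a description over genes that share libraries and depth. Where the sense gene rose, 82.4% of antisense RNAs were higher; where it fell, 74.8%; and where it was not called, 74.5%. In G34R and G34V, compared with the same WT libraries, the antisense RNAs had medians of 0.27 and 0.23. Of the 617 tested, 444 were higher and 29 lower in G34R, and 379 were higher and 41 lower in G34V. Over all 6602 tested genes 1771 were higher and 1753 lower in G34R, and 1657 and 1649 in G34V. In the direct tests 362 were higher and 131 lower in set2Δ than in G34R, and 388 higher and 91 lower than in G34V. Over all tested genes 35.4% were higher and 34% lower than in G34R, and 32.8% and 29.6% than in G34V.

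Other noncoding RNAs moved less uniformly. Of 671 tested SPNCRNA RNAs 324 rose (48.3%) and 130 fell (19.4%), against 34.5% higher and 35.6% lower among all tested genes, with a median of 0.24, and of 35 tested prl RNAs, a class of polyadenylated noncoding RNAs, 16 rose and 7 fell. The RNA prl61 had 35.6, 33.7 and 31.4 CPM in set2Δ, against 1.39, 1.31 and 1.47 CPM in WT (log2 fold change 4.58, SE 0.067, adjusted p = 3.6e-17, edgeR), with no overlap. SPNCRNA.287, SPNCRNA.1304, SPNCRNA.601 and SPNCRNA.293 rose by 3.42, 2.87, 2.70 and 2.66. SPNCRNA.1120, SPNCRNA.1287, SPNCRNA.1255, SPNCRNA.1190 and SPNCRNA.1128 fell by 1.28, 1.25, 1.23, 1.09 and 1.07. Of 41 small nucleolar and spliceosomal RNAs 18 rose and 6 fell, of 78 nuclear tRNAs 5 rose and 15 fell, and of 28 mitochondrially encoded genes 13 rose and 2 fell. The small nucleolar and spliceosomal RNAs summed to 2140, 2660 and 2540 CPM in set2Δ and 3210, 2690 and 2370 CPM in WT, which overlap. Nuclear tRNAs were scarce: all 168 summed to 16.9, 17.8 and 17.0 CPM in set2Δ and 22.2, 19.4 and 19.3 CPM in WT, and 90 were not tested.

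The Tf2 elements, long terminal repeat retrotransposons, went the other way. All 12 tested Tf2 elements fell by at least 2-fold (against 1.3% of all tested genes), with a median log2 fold change of −1.28 and a range of −2.21 to −1.19; the remaining element, Tf2-8, had no counts. Tf2-11 had 151, 155 and 158 CPM in set2Δ, against 706, 702 and 744 CPM in WT (log2 fold change −2.21, SE 0.039, adjusted p = 3.1e-16, edgeR). Tf2-2 had 37.3, 36.6 and 39.2 CPM in set2Δ, against 107, 111 and 116 CPM in WT (−1.56). The groups overlapped in none of the 12. Summed over the elements, the level was 339, 324 and 334 CPM in set2Δ, against 1160, 1170 and 1190 CPM in WT. All 12 have a stretch of at least 100 bases at 90% identity elsewhere in the genome, so the assignment of reads to single elements is uncertain, and reads aligned to several places were 11.3% of reads in set2Δ and 12.9% in WT. In the direct tests all 12 were lower in set2Δ than in G34R and than in G34V, against 34% and 29.6% of all tested genes.

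The 15 coding genes with the largest decreases include set2 and genes of varied function. Spo13, a spindle pole body protein of forespore membrane assembly, is encoded by spo13, which had 0.845, 0.551 and 0.649 CPM in set2Δ, against 4.83, 5.27 and 5.42 CPM in WT (log2 fold change −2.95, SE 0.106, adjusted p = 1.2e-12, edgeR). The urea transporter gene SPBC23G7.13c, away from the ends, had 9.72, 10.1 and 11.2 CPM in set2Δ, against 57.8, 49.8 and 53.6 CPM in WT (−2.37). It was thus lower while 2 urea transporter genes near chromosome ends were higher. The glucanase gene agn2, for release of spores from the ascus, fell by 1.80, and the ammonium transporter gene amt3 by 1.33. SPBC1289.14, an adducin gene, fell by 1.33, but was higher in set2Δ than in G34R by 0.19 and than in G34V by 0.91. The other 9 of the 15 fell by 1.02 to 1.25 and were SPAC4H3.08, SPAPB1A11.03, SPAC6G10.06, wtf25, cid11, SPCC70.08c, gst1, tri1 and SPBC947.06c. They encode metabolic enzymes, a wtf protein of the meiotic drive family, a poly(A) polymerase, a methyltransferase, a ribonuclease and a spermidine family transporter.

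Genes of amino acid synthesis mostly fell. Of 40 tested genes 32 fell, against 35.6% of all tested genes, and 4 rose, with a median log2 fold change of −0.36. The serine synthesis gene ser3 had 1656, 1614 and 1723 CPM in set2Δ, against 3212, 2963 and 2952 CPM in WT (log2 fold change −0.87, SE 0.042, adjusted p = 4.0e-11, edgeR). The carbamoyl phosphate synthase genes arg4 and arg5, which feed arginine synthesis, fell by 0.81 and 0.63, and the acetylglutamate synthase gene arg6 by 0.40. The members that rose were arg7 (0.50), lys7 (0.36), ser2 (0.18) and met6 (0.09). In G34R and G34V the medians were −0.10 and 0.07 against the same WT libraries. In the direct tests 31 of the 40 were lower and 6 higher in set2Δ than in G34R, and 33 lower and 4 higher than in G34V. Over all tested genes 34% were lower and 35.4% higher than in G34R, and 29.6% and 32.8% than in G34V. The 8 auxotrophic marker genes examined, most of them biosynthetic, all fell, and single libraries did not overlap in 7 of them. With library size only 7 fell, and 7 fell without set2Δ replicate 3.

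Other metabolic lists changed by less. Over all tested genes 34.5% were higher and 35.6% lower, and over protein-coding genes 27.6% and 41.7%. Of 21 ergosterol synthesis genes 15 fell and 2 rose (median −0.15), led by the squalene monooxygenase gene erg1 (−0.54). Of 42 genes of the respiratory chain, ATP synthase and their assembly 31 fell and 1 rose (median −0.13). With library size only, 21 of these 42 fell and 3 rose. All 8 phosphate starvation genes fell (median −0.17). With library size only 5 of them fell, and 6 fell without set2Δ replicate 3, with 0 higher in both. Among 140 genes of cytosolic ribosomal proteins 49 fell and 5 rose (median −0.07). The share that fell was near that of all tested genes and below that of protein-coding genes. That count moved with the library and the scaling: 82 fell without set2Δ replicate 3, 12 rose without set2Δ replicate 1, and with library size only 27 fell and 19 rose. Of 17 nitrogen starvation genes 5 rose (29.4%), among them the permease genes isp5 (1.12) and put4 (0.90), and 6 fell (35.3%), led by amt3. These shares were near those of all tested genes. Of 48 ribosome biogenesis genes 18 rose (37.5%, near the share of all tested genes) and 8 fell (25 and 4 with library size only). All their log2 fold changes lay between −0.33 and 0.34. Of 13 cell separation genes 5 fell (38.5%, near the share of all tested genes) and 1 rose (1 and 1 with library size only). The lowest adjusted p was that of rga4 (−0.20).

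**Figure D5:**
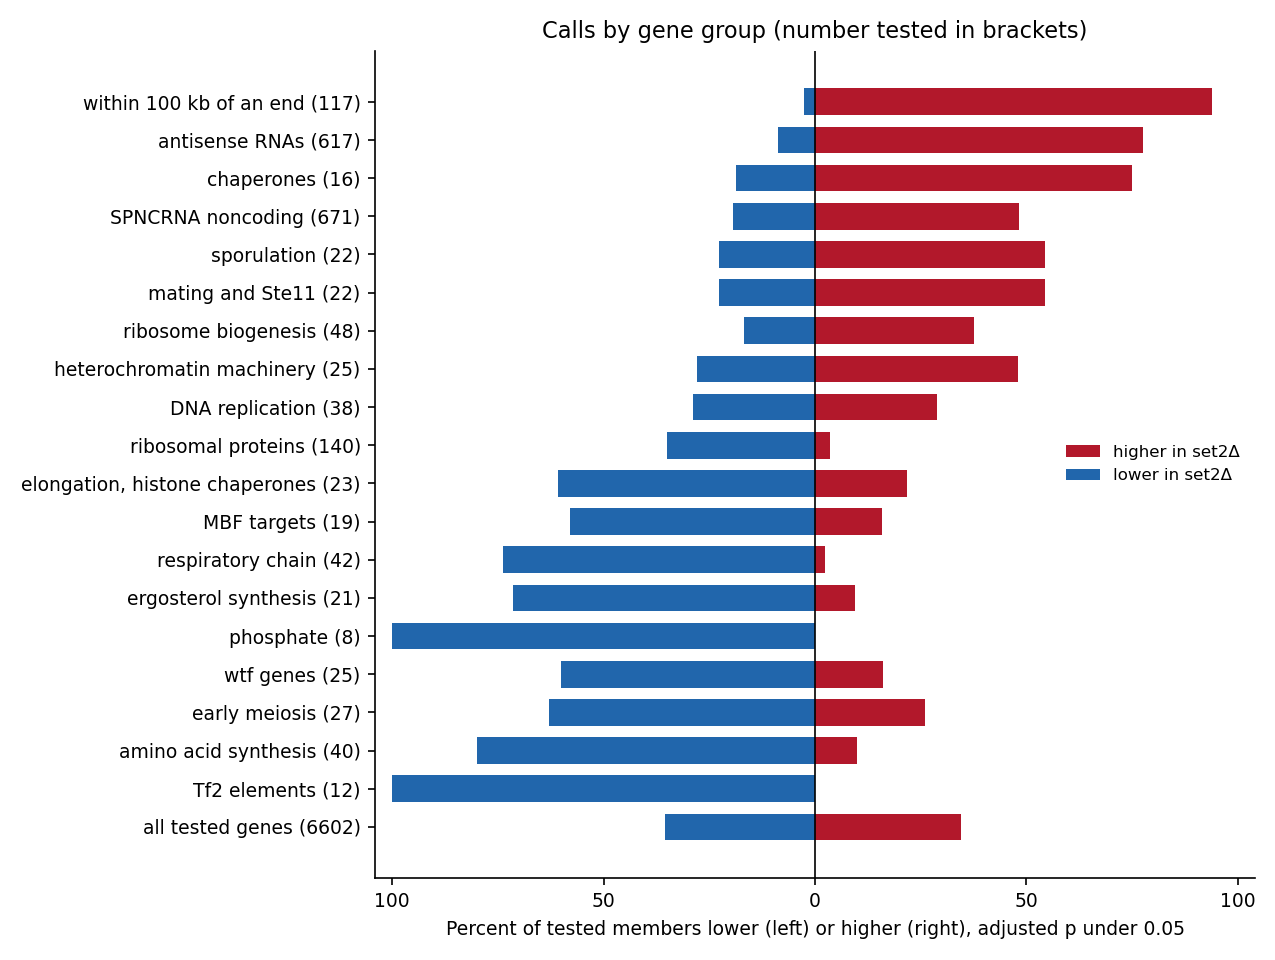
Percent of tested members of each gene group called higher (red, right) or lower (blue, left) in set2Δ than in WT at an adjusted p under 0.05, with the number tested in brackets. Genes within 100 kb of an end were mostly higher (94.0%), and Tf2 elements (all 12) and phosphate genes (all 8) were lower, against 34.5% higher and 35.6% lower over all tested genes. With library size only, 5 of the phosphate genes were lower.

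Chaperone genes rose together. Of 16 tested, 12 rose, against 34.5% of all tested genes, and 3 fell (12 and 0 with library size only, and 1 fell without WT replicate 1), with a median of 0.28. The disaggregase gene hsp104 had 870, 840 and 901 CPM in set2Δ, against 474, 477 and 500 CPM in WT (log2 fold change 0.85, SE 0.035, adjusted p = 6.5e-12, edgeR). The DnaJ gene psi1, the Hsp90 co-chaperone gene wos2 and the co-chaperone gene sti1 rose by 0.75, 0.59 and 0.35. The members that fell were mas5 (−0.19), the heat shock factor gene hsf1 (−0.14) and pdi1 (−0.09). Genes of the core environmental stress response did not move as a group: 4 of 21 rose, among them hsp104, which is in both lists, and 6 fell (7 and 5 with library size only), led by the metallothionein gene zym1 (−0.51), sro1 (−0.43) and the thioredoxin gene trx2 (−0.42).

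Lists of sexual differentiation genes moved in different directions. Of 22 mating and Ste11 pathway genes 12 rose (54.5%, against 34.5% of all tested genes) and 5 fell, with the Ras activator gene ste6 (0.66) and the agglutinin gene map4 (0.56) at the lowest adjusted p. Genes of both mating types were expressed in both groups. The 8 tested M-cell genes summed to 508, 503 and 505 CPM in set2Δ and 458, 473 and 434 CPM in WT. The 4 tested P-cell genes summed to 654, 651 and 656 CPM in set2Δ and 644, 630 and 652 CPM in WT. The M-cell sums were higher in every set2Δ library, while the P-cell sums of the groups overlapped. The pheromone precursor gene mfm1 went against the other M-cell genes, with 23.1, 25.9 and 27.2 CPM in set2Δ, against 51.1, 55.2 and 47.9 CPM in WT (log2 fold change −1.01). The genes of the mating-type cassettes were at or near the floor in both groups, with mat1-Mi highest at 0.465 CPM in set2Δ and 0.560 CPM in WT, and mat2-Pc and mat2-Pi had no counts. Their sequences are repeated, and multiply aligned reads were left out.

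Of 27 early meiotic genes and targets of the RNA elimination factor Mmi1, 17 fell (63.0%, against 35.6% of all tested genes) and 7 rose, with a median of −0.29 (17 and 9 without set2Δ replicate 3). Among the 7 that rose, the meiotic recombinase gene dmc1 changed most, with 17.4, 17.2 and 17.0 CPM in set2Δ, against 4.66, 4.91 and 4.74 CPM in WT (log2 fold change 1.85, SE 0.044, adjusted p = 9.5e-15, edgeR). The recombination gene mcp7 had 22.9, 23.9 and 22.4 CPM in set2Δ, against 44.5, 46.2 and 46.7 CPM in WT (−0.99), and the axis gene rec10 rose by 0.50. Of 22 sporulation genes 12 rose (54.5%) and 5 fell, led by the anaphase-promoting complex activator gene mfr1 (1.32) and the meiotic septin genes spn6 (1.12) and spn5 (0.76), with spo13 against them. The list had a median of 0.16 in set2Δ, 0.15 in G34R and 0.06 in G34V, against the same WT libraries. There mfr1 differed by 0.98 in both G34R and G34V, and spn6 by 1.06 and 0.63. The marker genes of meiotic cells did not move one way: isp3 (0.63) and spo6 (0.35) rose, rec8 (−0.60) fell, and mei4 (−0.08) and mde10 (0.00) were not called. Of these, isp3 is also among the 117 tested genes within 100 kb of an end, of which 110 rose. The part of a few meiotic cells in these values was not tested.

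Apart from set2, the chromatin genes named here changed by less than 2-fold. The shares of all tested genes were 34.5% higher and 35.6% lower. Of the 7 genes of Set2 and Clr6 complex II, alp13 (0.25) and pst2 (0.20) rose, clr6 (−0.25), prw1 (−0.22) and cph2 (−0.06) fell with set2, and cph1 was not called (−0.02). Of the 7 genes of the Mst2 complex 5 rose and 2 fell (5 and 1 with library size only), between −0.21 for ptf1 and 0.25 for ptf2. Of 23 genes of elongation factors and histone chaperones 14 fell and 5 rose (8 and 7 with library size only). The elongation factor gene spt5 had 162, 152 and 159 CPM in set2Δ, against 248, 248 and 239 CPM in WT (log2 fold change −0.64, SE 0.028, adjusted p = 1.1e-11, edgeR), with no overlap. Its partner gene spt4 rose by 0.33, the genes hip1 and hip3 of the HIRA histone chaperone fell by 0.46 and 0.41, and the Spt6 partner gene iws1 fell by 0.29. Of 25 genes of heterochromatin formation 12 rose and 7 fell (15 and 5 with library size only), with rdp1, the RNA-directed RNA polymerase (0.41), and stc1, which links RNA interference to histone methylation (−0.53), at the extremes.

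Histone H3 counts came almost entirely from hht2 in both groups. It had 643, 682 and 706 CPM in set2Δ, against 786, 757 and 790 CPM in WT (log2 fold change −0.20, SE 0.040, adjusted p = 0.00034, edgeR), while hht1 was at most 0.122 CPM and hht3 at most 2.01 CPM in these libraries. The H2A and H2B genes hta1 (−0.23), hta2 (−0.20) and htb1 (−0.21) fell by similar amounts, and the H4 gene hhf2 was not called (−0.03). The H2A.Z gene pht1 (0.31) and the centromeric H3 gene cnp1 (0.29) rose. The other H4 genes, hhf1 and hhf3, were at most 0.0523 CPM, and the labels do not say whether they, hht1 and hht3 are present in these strains.

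Genes of the cell cycle and of DNA replication and repair changed by less than 2-fold, apart from dmc1. The lists stand against 34.5% higher and 35.6% lower among all tested genes. MBF is the transcription factor complex for genes of DNA synthesis onset; of its 7 subunits and regulators 5 fell and 2 rose (3 and 2 with library size only), led by the activator gene rep2 (−0.56), with the corepressor gene yox1 rising (0.27). Of 19 MBF targets 11 fell (57.9%) and 3 rose (median −0.12). With library size only 4 fell and 3 rose, 7 fell without WT replicate 1 or 2, and 1 rose without set2Δ replicate 1 or 2 or WT replicate 3. The cyclin gene cig2 had 98.0, 98.7 and 94.0 CPM in set2Δ, against 146, 158 and 156 CPM in WT (log2 fold change −0.66, SE 0.032, adjusted p = 4.4e-11, edgeR), and the ribonucleotide reductase gene suc22 fell by 0.29. Of 38 replication genes 11 rose and 11 fell (28.9% each; 16 and 8 with library size only), with the helicase gene mcm3 lower (−0.54) and the nuclease gene dna2 higher (0.29). Of 18 homologous recombination genes 7 rose and 5 fell (8 and 2 with library size only), and within the Mre11 complex rad50 fell (−0.45) while mre11 rose (0.29). Of 14 checkpoint genes 6 rose and 4 fell (9 and 2 with library size only, and 2 fell without WT replicate 1), with the fork protection gene swi1 lower (−0.37) and the clamp gene rad1 higher (0.31).

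Of 25 tested wtf genes, a family of meiotic drivers and their suppressors, 15 fell, against 35.6% of all tested genes, and 4 rose, with wtf25 (−1.10) and wtf16 (−1.07) lowest and wtf11 (0.72) highest. Of these, 20 have a stretch of at least 100 bases at 90% identity elsewhere in the genome, and their counts are uncertain for the reason given for Tf2.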

How the data were processed

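The values were whole-number read counts per gene, deposited as 1 file per library. Per the submitters' processing notes, the authors called bases with CASAVA 1.7 and used cutadapt, STAR, SAMtools and HTSeq with build ASM294v2 to make these counts; no other version is given in the sources used here. The 5 summary lines of each file were kept out of library sizes and tests, and reads in no gene were 3.26% in set2Δ and 2.02% in WT. Names, classes, lengths and distances came from RefSeq build ASM294v3, to which 6232 of 7013 genes were matched. Because the builds differ, no coordinates or sequences are printed.

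Genes kept by filterByExpr were scaled by TMM and tested with edgeR 4.0.16 (quasi-likelihood F-test, robust, all 12 libraries in 1 model, 8 residual degrees of freedom). The Benjamini-Hochberg adjustment ran over 6602 genes, with calls at 0.05. CPM were computed here from the deposited counts. Shared sequence was measured with blastn 2.17.0. Members and lists were chosen with earlier results of these data known. Named genes were the 15 coding genes, 5 noncoding and 5 antisense RNAs with the largest change in each direction (at least 5 CPM in 1 group, no overlap of libraries), in each list the 4 lowest adjusted p and any member against the trend, and set2, histone, Clr6 complex II and mating-type genes. One antisense RNA that the rule names is not reported here. Floors of 3 counts cover counting error only.

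On simulated counts for set2Δ against WT (6570 genes), 56% of genes changed 1.1-fold, 94% of those changed 1.25-fold and 100% of those changed 1.5-fold or 2-fold were found, with 12 false calls. The changed genes, 50 per fold, were drawn only above a minimum WT level that many genes of the first 20 kb do not reach. They were also far fewer than the genes called in the data. These figures therefore do not cover scarce genes or changes in most genes. Alternatives were DESeq2 1.42.0, limma 3.58.1, other scalings, filters and thresholds, and each library left out. R 4.3.3 and Python 3.11.15 were used.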

Additional observations from a re-analysis of the deposited data

Results flagged for a closer look

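Reads outside annotated genes lie outside the gene counts used in the comparison, and their share was higher in set2Δ than in WT. It averaged 3.26% of all reads in set2Δ (3.21 to 3.30% over 3 libraries), against 2.02% in WT (1.99 to 2.03% over 3 libraries). The groups did not overlap, and the G34R and G34V libraries averaged 2.42% and 2.38%. Where in the genome these reads fall cannot be read from the count files, and the difference was not tested.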

How the results depend on the processing

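Counts over all genes, subtelomeric genes and antisense RNAs stayed within 1.5 times their value under other scalings, filters, tools, the 6 libraries alone and halved counts of set2Δ replicate 3. In a test against a fold of 1.5, which calls fewer genes by construction, 515 genes were higher and 126 lower, with 222 antisense RNAs higher and 6 lower and 1 subtelomeric gene lower. Within 50 kb of an end, where fewer genes lie, 56 were higher and 0 lower (also 0 at an unadjusted p under 0.05). The count filter could have kept some of these through set2Δ alone. Leaving out each library in turn gave 2190 to 2239 genes higher and 2148 to 2291 lower, 356 to 371 higher and 83 to 93 lower by at least 2-fold, 472 to 479 antisense RNAs higher and 47 to 55 lower, and 109 to 111 subtelomeric genes higher and 3 lower. Of 2978 values of single genes, 88 were no longer called, 2 became called and 1 changed sign: the septin gene spn3, at −0.06, came to 0.0 with library size only, and the cause was not tested. Of 1250 counts of calls in the gene lists, 125 moved by more than 1.5 times: 60 in the test against a fold of 1.5, 32 under other scalings, 18 without 1 library and 15 under other alternatives. Other scalings moved the median of all genes by less than 0.1, at most to 0.057 with library size only. No paired analysis was possible because no label ties a set2Δ library to a WT library. Genes with WT values near the floor of 0.0134 to 0.0192 CPM are limited by depth.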

Other observations

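Away from the ends of chromosomes I and II, 45 coding genes and pseudogenes rose by at least 2-fold, a set chosen here after the values were seen and given with no test. Of these, 14 lie on chromosome III, whose ends adjoin the ribosomal DNA repeats. Within 50 kb of its left end 7 of 8 tested genes rose and 1 fell (median log2 fold change 1.28), while between 50 and 100 kb 7 of 23 rose and 7 fell (median 0.03). At its right end 14 of 35 rose and 11 fell, none of them up by 2-fold. Examples from the left end are SPCP20C8.03, at 7.46 CPM in set2Δ and 1.76 CPM in WT (2.07), and SPCC757.02c, at 24.7 CPM in set2Δ and 6.93 CPM in WT (1.83).

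Of the 45, 9 carry names that mark them as raised in meiosis (mug or meu), 3 of them on chromosome III. The gene meu27 had 67.3, 69.1 and 70.6 CPM in set2Δ, against 19.0, 18.5 and 20.3 CPM in WT (log2 fold change 1.84), and meu6, a pleckstrin homology domain gene, had 57.8 CPM in set2Δ and 19.7 CPM in WT (1.55). Over all 122 tested genes with such names 43 rose (35.2%) and 47 fell (38.5%), against 34.5% and 35.6% of all tested genes, and the median was 0.01. The 45 also include cuf2, a copper-family transcription factor of meiosis (1.90), the plasma membrane proton pump gene pma2 (1.57) and the zinc transporter gene zrt1, which had 1171 CPM in set2Δ and 461 CPM in WT (1.34). Against the same WT libraries pma2 also rose by 1.81 in G34R and differed by 0.19 in G34V, and zrt1 differed by 0.98 in G34R and 0.96 in G34V. In G34R and G34V cuf2 differed by 1.21 and 1.05, meu27 by 0.50 and 1.02, and meu6 by 0.28 and 0.40.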
